A study of Mus musculus with 5 samples.

Results

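A set of 10 genes that make, bind or cut hyaluronan was followed in the iridocorneal region of DBA/2J and Gpnmb+ mice. They were the hyaluronan synthases Has1, Has2 and Has3, the lecticans versican (Vcan), aggrecan (Acan) and neurocan (Ncan), the link proteins Hapln1 and Hapln3, the receptor Cd44 and the depolymerizing factor Cemip. The genes were chosen by function, but with earlier results of these data known, so no test was run on the set. They were matched by symbol to Ensembl identifiers, which gave 10 of the 56941 identifiers counted. Vcan RNA was 3.03-fold higher in DBA/2J than in Gpnmb+ pools, Cemip RNA fell to 46.8% of the Gpnmb+ level, and the other 8 genes did not pass the test.

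RNA-seq was performed on pooled iridocorneal angle tissue of mice aged 12 months, reported as male and female and untreated. There were 3 DBA/2J pools and 2 pools of DBA/2J-Gpnmb+/SjJ, called Gpnmb+ from here on. DBA/2J mice carry the Gpnmb R150X nonsense mutation together with the Tyrp1 b mutation and develop pigmentary glaucoma. Gpnmb+ mice share the background and the Tyrp1 b mutation but carry a wild-type Gpnmb allele, so the comparison asks what differs with Gpnmb in aged eyes. Iris and ciliary body were trimmed away, although remnants stayed attached. By protocol a pool held 3 mice, while the library names list 3 animals for each DBA/2J pool and 2 for each Gpnmb+ pool. Each value is therefore a mean over animals, and every p-value measures the spread between pools.

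Hyaluronan is a long unsulfated sugar chain that synthases in the plasma membrane extrude directly into the matrix. Lecticans, proteoglycans that carry chondroitin sulfate chains, bind it through their G1 domain, and link proteins lock that bond, so that large hydrated aggregates form. In the trabecular meshwork, hyaluronan and versican lie in the tissue that aqueous humor crosses on its way to Schlemm's canal. CD44 holds hyaluronan at the cell surface, and CEMIP takes part in its breakdown.

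The pools held between 43900661 and 49837758 counts. Gpnmb itself had 2042, 2234 and 1946 counts in DBA/2J against 129659 and 110568 in Gpnmb+ (log2 fold change -5.67), as the genotype labels state. All 6 trabecular meshwork markers were detected, with summed levels of 4220 to 5180 CPM (counts scaled to library size) in DBA/2J and 2720 to 3410 CPM in Gpnmb+. Of them, 2 were higher and 4 lower in DBA/2J. Chil1 was the most abundant, at 2992 to 4088 CPM in DBA/2J against 1879 and 1184 CPM in Gpnmb+. RNA of other tissues was present and differed between pools. The 7 markers of nonpigmented ciliary epithelium were all higher in DBA/2J and did not overlap between the genotypes, whereas the 5 Schwann cell markers were all lower and 4 of them did not overlap. Over all genes tested, 34.5% did not overlap. Gpnmb+ pool 2 stood apart in photoreceptor markers, at 1840 CPM against 338 to 829 CPM in the other pools. Y-linked genes were read in all DBA/2J pools, while Ddx3y had 0 and 4 counts in the Gpnmb+ pools. Xist had 7843 and 9152 counts in Gpnmb+ against 596, 0 and 2417 in DBA/2J. By these genes both Gpnmb+ pools read as female, although the study reports males in both genotypes. Sex and genotype therefore cannot be told apart. In bulk tissue, fewer cells of a type and less RNA per cell cannot be told apart either.

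The genes were tested in a fit over all 19713 genes that reached 10 counts in at least 1 pool. A call needed an adjusted p of at most 0.05 and a change of at least 1.5-fold, which 0.796% of all genes tested met (0.502% higher and 0.294% lower in DBA/2J). All 10 hyaluronan genes entered the fit, Acan only through its DBA/2J counts. Of them, 2 were called, 1 in each direction, and 8 had a positive log2 fold change, with a median of 0.28 against -0.02 over all genes tested. An unadjusted p of at most 0.05 was met by 3 of the 10, against 15.9% of all genes tested. The genotypes did not overlap for 3 of the 10, Vcan, Acan and Cemip, or 30.0%, against 34.5% of all genes tested. Both of these counts include Acan, which entered only through the genotype where it was high. The 5 pools can be divided into 3 and 2 in 10 ways, so no exact permutation test on a lone gene can reach a p under 0.1, and only the model across all genes was used.

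**Figure D1:**
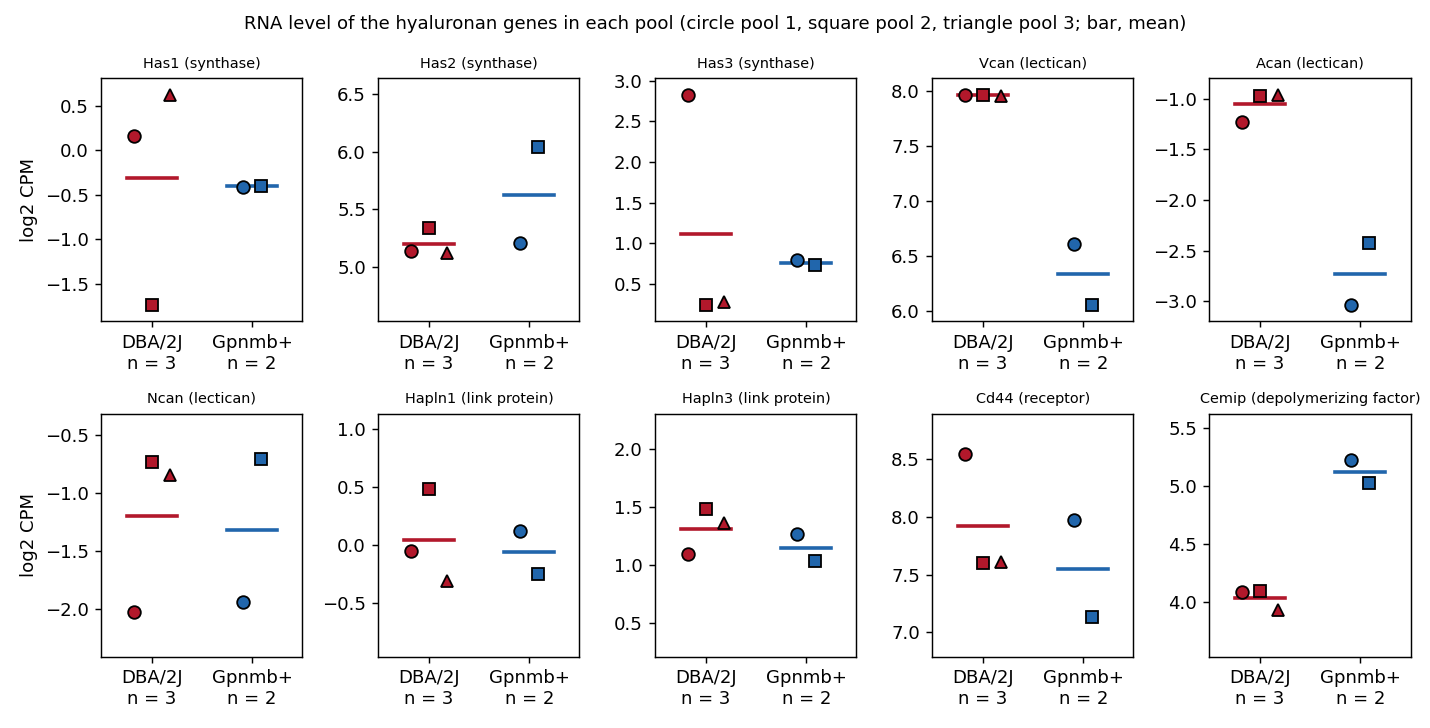
Log2 CPM with a prior count of 2 (y axes, placed separately for each gene and not starting at 0) of the 10 genes in the 3 DBA/2J and 2 Gpnmb+ pools (x axes), each point a pool and each bar the mean of a genotype. The DBA/2J points of Vcan lie together at 7.96, above the Gpnmb+ points at 6.61 and 6.06, those of Cemip lie at 3.93 to 4.09, below 5.23 and 5.03, and the DBA/2J points of Has1, Has3 and Cd44 are spread out.

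The promoters of Vcan and Cemip are shown because these were the 2 genes called between the genotypes. Each is the 250 bases before the start of the Ensembl canonical transcript in GENCODE M39, read 5′ to 3′ from the minus strand of GRCm39, with motif matches in capitals.
Vcan, chr13:89890815-89891064, minus strand: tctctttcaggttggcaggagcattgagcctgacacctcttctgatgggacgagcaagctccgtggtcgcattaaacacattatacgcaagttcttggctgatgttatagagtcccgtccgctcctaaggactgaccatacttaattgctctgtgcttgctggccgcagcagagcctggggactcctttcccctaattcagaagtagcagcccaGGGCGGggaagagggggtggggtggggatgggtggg
Cemip, chr7:83735711-83735960, minus strand: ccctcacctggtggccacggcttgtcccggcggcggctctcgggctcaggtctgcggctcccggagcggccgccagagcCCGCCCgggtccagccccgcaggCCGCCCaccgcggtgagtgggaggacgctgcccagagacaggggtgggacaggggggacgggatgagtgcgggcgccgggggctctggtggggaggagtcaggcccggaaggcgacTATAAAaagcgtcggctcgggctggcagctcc
Both strands were searched for 6 motifs, which were GGGCGG for the GC box, TGANTCA for sites of the AP-1 factors, TGACGTCA for the cAMP response element, CTTTGAT for sites of the TCF/LEF factors, TTCCNGGAA for sites of the STAT factors and TATAAA for the core promoter. Vcan held a GC box 36 to 31 bases before its start. Cemip held TATAAA, the core of a TATA box, 32 to 27 bases before its start and 2 GC boxes on the other strand. Over all 21770 coding promoters, 36.3% held a GC box and 11.9% held TATAAA, and the window of Cemip was rich in G and C at 74.8%, against a median of 53.2%. Among the promoters of the other genes described, Has1 held a cAMP response element, which 1.69% of promoters do, Hapln3 the TATA motif, Acan 2 overlapping GC boxes and Ncan 1 GC box. These matches describe letters and not binding.

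Has2 supplied most synthase RNA. This synthase, which makes the long chains and is required for heart development in the embryo, had 1571, 1737 and 1554 counts in DBA/2J against 1875 and 3223 in Gpnmb+. Gpnmb+ pool 2, the photoreceptor-rich pool, was highest at 65.9 CPM, while Gpnmb+ pool 1 at 37.0 CPM lay among the DBA/2J pools at 34.8 to 40.5 CPM, so the genotypes overlapped. The log2 fold change was -0.48 (SE 0.24, 95% interval -1.05 to 0.10, the edgeR quasi-likelihood test with Benjamini-Hochberg adjustment, adjusted p = 0.387). Without Gpnmb+ pool 2 it was 0.00. A noncoding gene on the other strand, Has2os, shares 400 exon bases with Has2, and as no strand setting is given for the counting, their reads may not be separable there. Has2os itself had 104 to 115 counts in DBA/2J against 120 and 168 in Gpnmb+.

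Has1 and Has3, the less abundant synthases, varied more inside DBA/2J than between the genotypes. Has1 had 48, 11 and 67 counts in DBA/2J against 36 and 35 in Gpnmb+, so the Gpnmb+ pools fell inside the DBA/2J range. Has3 had 314, 49 and 52 counts in DBA/2J against 86 and 79 in Gpnmb+, so a single DBA/2J pool was above all others and the other 2 were below both Gpnmb+ pools. The log2 fold change was 0.41 for Has1 (95% interval -1.22 to 2.04) and 0.92 for Has3 (-1.19 to 3.02). Without DBA/2J pool 1 the value of Has3 was -0.52. That pool was also the highest for Cd44 and for the basal epithelial keratin Krt14, at 60633 counts against 20481 to 45702. The other corneal epithelium markers were each highest in another pool. Summed, the 6 markers were highest in Gpnmb+ pool 1, at 8230 CPM against 6460 CPM in DBA/2J pool 1. The part of epithelium in these values was not tested.

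Vcan, the large hyaluronan-binding proteoglycan of loose connective tissue and the most abundant lectican here, rose in DBA/2J. Vcan (ENSMUSG00000021614, chr13:89803431-89890814, minus strand of GRCm39) had 11095, 10663 and 11077 counts in DBA/2J against 4968 and 3255 in Gpnmb+. After scaling, the DBA/2J pools lay within 0.01 of each other on the log2 scale, whereas the Gpnmb+ pools differed by 0.56, and the genotypes were far apart. Mean levels were 248.8 ± 0.694 CPM (SD, n = 3) and 82.2 ± 22.2 CPM (SD, n = 2). The log2 fold change was 1.60 (SE 0.17, 95% interval 1.18 to 2.02), or 3.03-fold (2.26 to 4.05), with adjusted p = 0.0294 by the edgeR quasi-likelihood test with Benjamini-Hochberg adjustment. This call was lost when any of the DBA/2J pools was left out (1.60 each time, adjusted p 0.101 to 0.117) and without Gpnmb+ pool 2 (1.35, adjusted p = 0.087). It remained without Gpnmb+ pool 1, at 1.90 and adjusted p = 0.0172.

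Markers of nonpigmented ciliary epithelium, the layer that secretes aqueous humor, moved with Vcan. Summed, they reached 1050, 1150 and 1270 CPM in DBA/2J against 411 and 219 CPM in Gpnmb+, 7 of 7 markers were higher in DBA/2J and none was at 0. Their median log2 fold change, 1.72, was close to that of Vcan. Taken as a share of this sum, Vcan was 23.7%, 21.6% and 19.6% in DBA/2J against 23.8% and 30.4% in Gpnmb+, a log2 difference of -0.32 in the opposite direction. Optc weighed most in this sum, as the most abundant of the 7 markers in every pool and the one with the largest log2 fold change, 2.27. It had 524 to 684 CPM in DBA/2J against 172 and 78.2 CPM in Gpnmb+, and the share without it was not computed. The part of this epithelium in the Vcan result was not tested. DBA/2J pool 2, which had no Xist counts, and pool 3, which had 2417, gave Vcan levels of 248.4 and 248.3 CPM. Pool 3 also had 1567 counts of the Y-linked Ddx3y, so no DBA/2J pool matched the Gpnmb+ pools in sex-linked RNA. The part of sex in the Vcan result was not tested.

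**Figure D2:**
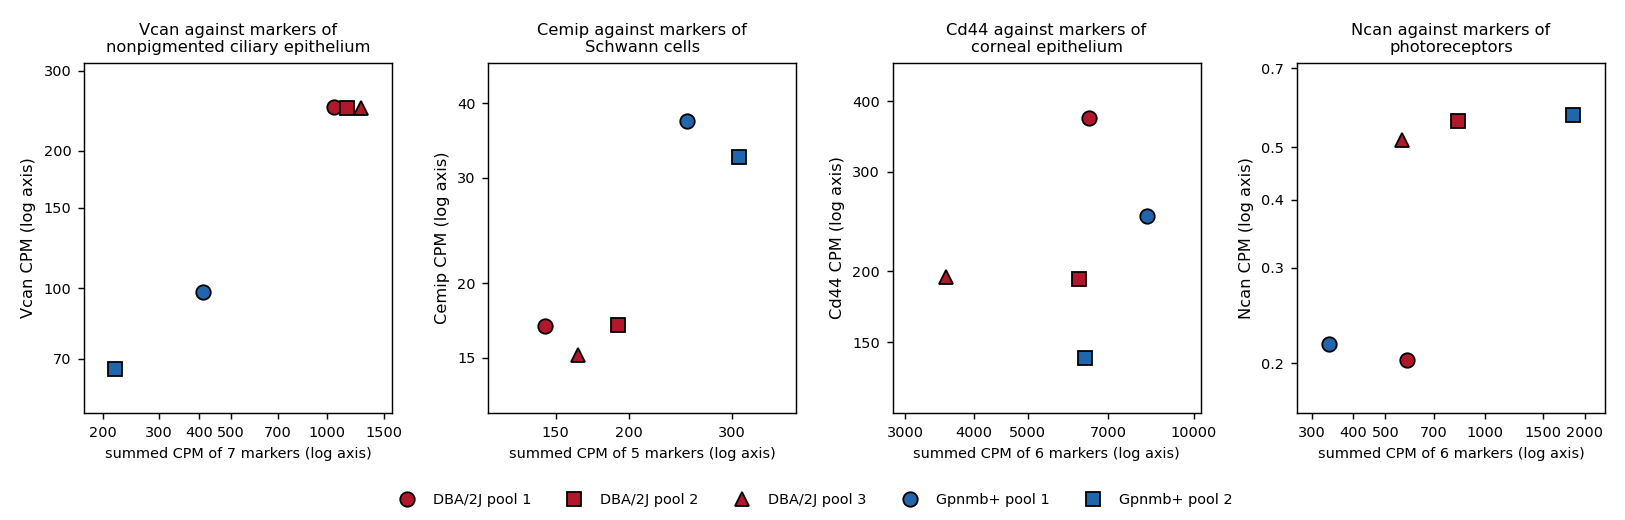
CPM of Vcan, Cemip, Cd44 and Ncan (y axes, log scale) against the summed CPM of the markers of a cell type (x axes, log scale), each point a pool. Vcan and the nonpigmented ciliary epithelium markers are both high in the 3 DBA/2J pools, and Cemip and the Schwann cell markers are both high in the 2 Gpnmb+ pools.

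Acan, the proteoglycan of cartilage and perineuronal nets, was near the detection limit. It had 17, 20 and 21 counts in DBA/2J against 4 and 7 in Gpnmb+. The genotypes did not overlap, and the fitted change was 3.90-fold (95% interval 1.82 to 8.39), a log2 fold change of 1.96 (SE 0.45) with adjusted p = 0.121 by the edgeR quasi-likelihood test with Benjamini-Hochberg adjustment, which misses the threshold. As Acan passed the count minimum only through its DBA/2J counts, these values describe it and are not support for a change. Of the 4 cartilage markers tested, 2 were higher and 2 lower in DBA/2J (median -0.13 on the log2 scale). Col2a1 had 39.6 to 49.2 CPM in DBA/2J against 8.53 and 15.9 CPM in Gpnmb+, while Cnmd (-1.08) and Epyc (-0.82) were lower without overlap. The sum of the list was 52.7 to 68.0 CPM in DBA/2J against 33.7 and 42.8 CPM in Gpnmb+, with Snorc at 0 and Matn1 at 3 counts or fewer in every pool, and their part in the Acan values was not tested. Acan shares 378 exon bases with the unnamed gene Gm26633 and ends 2 bases from Hapln3.

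Ncan, a lectican of nervous tissue, had 9, 24 and 23 counts in DBA/2J against 11 and 28 in Gpnmb+, so each genotype had both low and high pools. Its log2 fold change was 0.11 (95% interval -1.38 to 1.60). The lowest pools were pool 1 of each genotype, where photoreceptor markers were at 582 and 338 CPM against 562 to 1840 CPM in the other 3 pools, and the part of retinal RNA in Ncan was not tested. The gene overlaps Hapln4 on the other strand over 1255 exon bases, so that low counts of either are uncertain.

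The link proteins did not pass the test. Hapln1, the cartilage link protein, had 41, 58 and 34 counts in DBA/2J against 53 and 39 in Gpnmb+, and Hapln3, which is more widely expressed, had 93, 118 and 113 against 120 and 98. Both genes overlapped between the genotypes. The log2 fold change was 0.13 for Hapln1 (95% interval -0.71 to 0.98) and 0.17 for Hapln3 (-0.38 to 0.72). Link protein genes stand beside lectican genes in the genome. Hapln1 lies 43.5 kb from Vcan on the other strand of chromosome 13 with no coding gene between them, yet Vcan was called and Hapln1 was not, although the difference between these changes was not tested. Hapln3 and Acan face each other on chromosome 7.

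Per exon length, Cd44 was the most abundant of the 10 genes, although Vcan had more counts in DBA/2J pools 2 and 3. Cd44 had 16628, 8308 and 8727 counts in DBA/2J against 12702 and 6869 in Gpnmb+. Pool 1 of each genotype was the highest, and the genotypes overlapped. Mean levels were 254.4 ± 104 CPM (SD, n = 3) and 195.4 ± 77.7 CPM (SD, n = 2), a log2 fold change of 0.38 (SE 0.38, 95% interval -0.54 to 1.30, the edgeR quasi-likelihood test with Benjamini-Hochberg adjustment, adjusted p = 0.677). Without DBA/2J pool 1 the value was -0.01. The corneal epithelium also expresses Cd44, and its 6 markers summed to 3560 to 6460 CPM in DBA/2J and 6340 and 8230 CPM in Gpnmb+. As a share of that sum, Cd44 was 3.13% to 5.79% in DBA/2J and 2.22% and 3.04% in Gpnmb+, and the part of the epithelium was not tested.

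Cemip, whose protein binds hyaluronan and takes part in its breakdown, fell in DBA/2J. Cemip (ENSMUSG00000052353, chr7:83582065-83735724, minus strand of GRCm39) had 754, 730 and 676 counts in DBA/2J against 1898 and 1593 in Gpnmb+. Every DBA/2J pool was below every Gpnmb+ pool, at 16.4 ± 1.06 CPM (SD, n = 3) against 35.0 ± 3.42 CPM (SD, n = 2). The log2 fold change was -1.10 (SE 0.11, 95% interval -1.37 to -0.82), a 2.14-fold lower level (1.77 to 2.58), with adjusted p = 0.0262 by the edgeR quasi-likelihood test with Benjamini-Hochberg adjustment. Leaving out any pool kept the value between -1.19 and -0.99 but lost the call, with adjusted p from 0.0513 to 0.115. Schwann cell markers were also lower in DBA/2J, at 144, 192 and 164 CPM against 251 and 309 CPM, with 5 of 5 lower and none at 0. As a share of their sum Cemip was 8.88% to 11.8% in DBA/2J and 10.5% and 14.9% in Gpnmb+, which overlapped. That sum was mostly Mbp, at 108 to 151 CPM in DBA/2J against 143 and 189 CPM in Gpnmb+. Mbp was also the least changed of the 5, at a log2 fold change of -0.42 against a list median of -1.23. The share without Mbp was not computed. Of the 6 trabecular meshwork markers, 4 were lower in DBA/2J, and their higher sum there was set by Chil1, the most abundant of them. Without Chil1 the sum of the other 5 was 1090 to 1310 CPM in DBA/2J against 1530 and 1540 CPM in Gpnmb+. As a share of that sum Cemip was 1.15% to 1.55% in DBA/2J against 2.12% and 2.45% in Gpnmb+, with no overlap and a log2 difference of -0.75. As a share of all 6 markers Cemip was 0.327% to 0.403% in DBA/2J against 1.1% and 1.2% in Gpnmb+. These did not overlap either, and the log2 difference was -1.7. The part of either cell type was not tested.

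**Figure D3:**
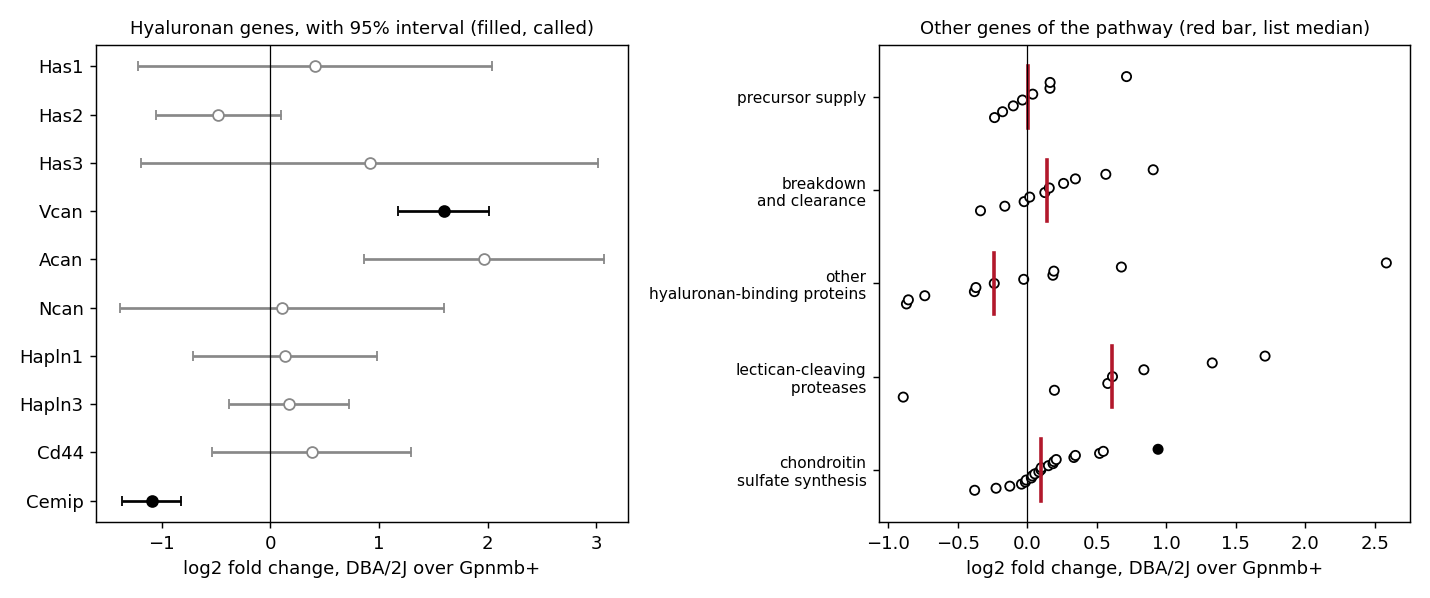
Log2 fold change of DBA/2J over Gpnmb+ (x axes), on the left for the 10 hyaluronan genes with 95% intervals as bars, and on the right for the tested genes of the 5 lists described further on, each point a gene, with red bars at the list medians and filled points for called genes. On the left the intervals of Vcan and Acan lie above 0, that of Cemip lies below 0 and the other 7 include 0, and on the right Chst11 is the filled point. Acan passed the count minimum only through its DBA/2J counts.

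Levels of different genes were compared per length, as TPM, counts scaled by the exon bases of each gene and by library size. In DBA/2J the order was Cd44 at 155 ± 60.3 TPM, Vcan at 62.2 ± 2.64, Has2 at 30.6 ± 1.90 and Cemip at 5.52 ± 0.129 (SD, n = 3), whose pools did not overlap with their neighbours. In Gpnmb+ the order was Cd44 at 121 ± 49.3 TPM, Has2 at 43.3 ± 16.9, Vcan at 20.9 ± 5.83 and Cemip at 12.0 ± 1.28 (SD, n = 2), so Vcan stood above Has2 in DBA/2J and below it in Gpnmb+. The other 6 genes had means of 2.50 TPM or less in both genotypes. Among them Hapln3, Has3, Has1 and Hapln1 overlapped from neighbour to neighbour in DBA/2J, as did Acan and Ncan. Within each role a single gene made up most of the RNA per length. Vcan was 98.2% to 99.5% of the RNA of the 3 lecticans, Hapln3 78.1% to 85.4% of the 2 link proteins, and Has2 84.1% to 97.2% of the 3 synthases, lowest in DBA/2J pool 1, where Has3 reached 13.1%.

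**Figure D4:**
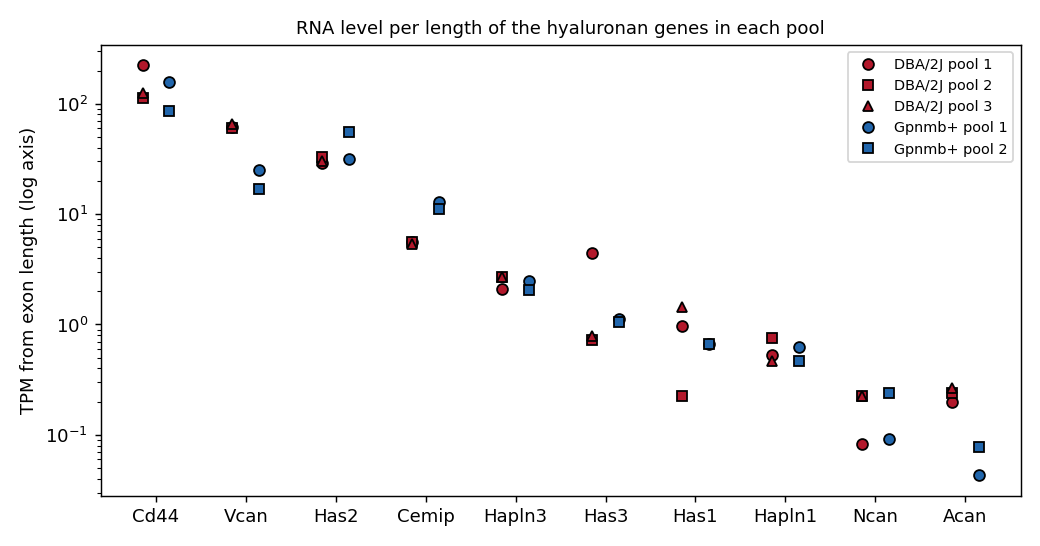
Level per exon length in TPM (y axis, log scale) of the 10 genes (x axis), each point a pool. Cd44, Vcan and Has2 lead in both genotypes, and the Vcan points of DBA/2J at 60.2 to 65.2 TPM stand clear of those of Gpnmb+ at 16.8 and 25.1 TPM.

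Genes around hyaluronan and its proteoglycans were described from 5 lists of 62 genes, of which 57 were tested. Of these 36 were higher in DBA/2J, the median log2 fold change was 0.10 against -0.02 over all genes tested, and 1 (1.75%) was called against 0.796% of all genes. Of the 57, 26 did not overlap between the genotypes (45.6% against 34.5% of all genes). For the list counts that follow, the shares over all genes tested were 15.9% at an unadjusted edgeR p of at most 0.05 and 4.7% called by DESeq2's Wald test.

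The genes that make the sugar nucleotide precursors of hyaluronan were split evenly, with 4 of 8 higher, 4 lower and a median of 0.00. By edgeR 0 were called, with 1 at an unadjusted p of at most 0.05, by limma-voom and by DESeq2 with ashr 0, and by DESeq2's Wald test 1, Gfpt2. Gfpt2, an isoform of the enzyme that opens the hexosamine pathway, had 2167, 1736 and 2837 counts in DBA/2J against 1541 and 1549 in Gpnmb+ (log2 fold change 0.72, the edgeR quasi-likelihood test with Benjamini-Hochberg adjustment, adjusted p = 0.162). Its paralog Gfpt1 was at -0.18 and Uap1, which makes UDP-N-acetylglucosamine, at -0.23. Of the genes for breakdown and clearance, 7 of 10 were higher and 3 lower, with a median of 0.14. By edgeR 0 were called, with 4 at an unadjusted p of at most 0.05, by limma-voom 0, and by DESeq2 with or without ashr 1, Stab2. Stab2, a scavenger receptor that takes up hyaluronan, had 2292, 2998 and 3283 counts in DBA/2J against 1368 and 2073 in Gpnmb+, with no overlap (log2 fold change 0.91, the edgeR quasi-likelihood test with Benjamini-Hochberg adjustment, adjusted p = 0.157). Lyve1, the hyaluronan receptor of lymphatic endothelium and some macrophages, had 1167, 789 and 1119 counts against 687 and 873, and its scaled levels, 18.4 to 26.2 CPM against 13.5 and 17.8 CPM, did not overlap. The lysosomal enzyme gene Gusb was at 0.35.

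Of 15 other hyaluronan-binding genes, 11 were tested, with 4 higher and 7 lower. By edgeR 0 were called, with 3 at an unadjusted p of at most 0.05, by limma-voom 0, by DESeq2's Wald test 2, Itih2 (lower) and Itih4 (higher), and with ashr 1, Itih4. Hapln2 and Itih1 were at 0 counts in every pool, Habp2 at 3 counts or fewer, and Ambp was under the count minimum. Itih4, an inter-alpha-trypsin inhibitor heavy chain, had 58, 49 and 22 counts in DBA/2J against 6 and 10 in Gpnmb+, with no overlap (log2 fold change 2.58, 95% interval 1.18 to 3.99, the edgeR quasi-likelihood test with Benjamini-Hochberg adjustment, adjusted p = 0.114). Impg1 and Impg2, proteoglycans of the matrix between photoreceptors, were at -0.85 and -0.87, and their highest pool was Gpnmb+ pool 2, with 1301 and 1371 counts, which was also the highest in photoreceptor markers.

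Among the 7 proteases that cleave lecticans, 6 were higher and 1 was lower, and the median was 0.61. By edgeR 0 were called, with 5 at an unadjusted p of at most 0.05, and by limma-voom 0. Adamts4 had 459, 132 and 359 counts in DBA/2J against 133 and 85 in Gpnmb+, which after scaling was 3.08 to 10.3 CPM against 1.74 and 2.62 CPM with no overlap, at a log2 fold change of 1.71 (95% interval 0.41 to 3.01). Adamts8 had 383, 180 and 356 counts against 166 and 109, at 1.33, and Adamts20 had 36, 26 and 45 against 82 and 68, at -0.89. DBA/2J pool 2 was the lowest DBA/2J pool for all 3. DESeq2's Wald test with Benjamini-Hochberg adjustment called 4 of the 7 higher, against 4.7% of all genes in either direction, and with ashr 2, Adamts4 and Adamts8.

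Chondroitin sulfate synthesis, which builds the side chains of lecticans, had 15 of 21 tested genes higher, 6 lower and 1 called, with a median of 0.10. The called gene was Chst11, which adds sulfate at the 4 position of chondroitin. It had 3584, 3291 and 4057 counts in DBA/2J against 2203 and 2090 in Gpnmb+, with no overlap, and rose by 0.94 on the log2 scale (SE 0.10, 95% interval 0.69 to 1.19, the edgeR quasi-likelihood test with Benjamini-Hochberg adjustment, adjusted p = 0.0294). With any of the 3 DBA/2J pools or Gpnmb+ pool 2 left out, edgeR called 0 of the 57 list genes, so the call of Chst11 was lost, and with Gpnmb+ pool 1 left out 1 was called. Chsy1, a chain polymerase, was at 0.55 and its partner gene Chpf2 at 0.52. Vcan, Acan, Adamts4, Adamts8 and Chst11 also stand in a proteoglycan gene list that the study drew from these pools, so that their direction there is not independent evidence.

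The genes with the pattern most like Vcan over the 5 pools, by root mean square (RMS) difference of log2 CPM centred on each gene's mean, were Dio3, which encodes a thyroid hormone deiodinase (0.079), Togaram2 (0.090) and Gm26709 (0.104). Dio3 had 2119, 1993 and 2390 counts in DBA/2J against 1037 and 668 in Gpnmb+. For Cemip they were 4933406C10Rik (0.034, at 5 to 17 counts), the axonemal dynein gene Dnah8 (0.041) and Frem2, a basement membrane protein gene (0.055). Frem2 had 220, 195 and 188 counts in DBA/2J against 549 and 424 in Gpnmb+. Within an RMS difference of 0.2 lay 53 genes for Vcan and 91 for Cemip, so neither pattern was particular to its gene.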

How the data were processed

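Iridocorneal RNA of 5 pools was sequenced by the authors on a NovaSeq X Plus (100 bp paired-end, Kapa mRNA HyperPrep), trimmed with fastp and aligned with STAR to GRCm39. The authors deposited raw counts of reads with a single aligned location per gene, with no normalization, and the strand used in counting is not given in the sources used here. All 5 count columns were used, and no 2 held identical values.

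Positions and exon lengths came from GENCODE M39, which held 56323 of the 56941 identifiers. The fit was made by edgeR 4.0.16 under R 4.3.3, alternatives by DESeq2 1.42.0, ashr 2.2.63 and limma 3.58.1, and tables and plots in Python 3.11.15 with pandas 2.3.3 and matplotlib 3.10.9. A gene needed 10 or more counts in 1 pool or more, libraries were scaled by TMM, and the 2 genotypes were compared without covariates by its quasi-likelihood test, with Benjamini-Hochberg adjustment over all 19713 genes. CPM used TMM-scaled library sizes, log2 CPM a prior count of 2, and TPM the union of exons. The common biological coefficient of variation was 20.7%. Intervals are at 95% and were derived from the F statistic. Tested on simulated counts of 19159 genes with 200 changed by 4-fold, the fit recovered 92.5% with 6 false calls. The changed genes were not among those with few counts, and the simulated spread followed the trend over all genes, not that of each gene. Recovery of smaller changes, such as those called here, was not simulated.

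The 10 genes and all lists were chosen with earlier results of these data known. The text names all 10, from each list the called genes and the largest changes up to 3, the 3 genes nearest in pattern to each called gene, and Gpnmb. Krt14, Ddx3y, Xist, Chil1, Optc, Mbp, Col2a1, Cnmd, Epyc, Itih2 and markers or neighbours at low counts were named after their values were seen. Alternatives were another scaling, tool, count minimum and fold minimum, a block on pool number, each pool left out, transcript length, and, chosen after seeing the data, levels relative to summed markers. Another promoter is not reported here.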

Additional observations from a re-analysis of the deposited data

How the results depend on the processing

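Of the 19713 genes tested, 157 were called, 927 by DESeq2, 734 by DESeq2 with ashr and 360 with no count minimum. Leaving out a pool gave 1 to 217 calls over all genes, 0 to 1 of the 10 hyaluronan genes in place of 2, and 0 to 1 of the list genes. Of the list genes, 1 was called, 9 by DESeq2, 5 with ashr and 2 with pool number as a block. Both Vcan and Cemip were called under every other scaling, tool, count minimum and fold minimum, and under the block. Over all 13 alternatives Vcan ranged from 1.35 to 1.90 (log2) and Cemip from -1.19 to -0.99. Where a Gpnmb+ pool was left out, the lone pool was assumed to vary like the DBA/2J pools.

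Pool numbers name no shared animals. Deviations of same-numbered pools correlated at 0.28 and 0.25, and with 2 pairs the pools share only a number. The replicate block gave 220 calls over all genes and log2 fold changes of -0.28 for Has1 and -0.06 for Ncan, opposite to the fit without it. Leaving out a pool turned the sign of Has1 (from -0.09 to 0.85), Has3 (-0.52 to 1.31), Ncan (-0.43 to 0.96), Hapln1 (-0.13 to 0.34) and Cd44 (-0.01 to 0.86), none of which was called in the full fit. Relative to summed markers of nonpigmented ciliary epithelium, in which Optc weighed most, Vcan was at -0.32, and the cause was not tested. Genes with few counts, Acan, Ncan, Hapln1 and Has1, are limited by depth, and counting error covers no variation between mice in a pool. Using the longest transcript kept 10 of 10 genes at the same rank.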
